A study of Mus musculus with 6 samples.

Results

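The transcription factor genes that set podocyte identity were examined as a group of 7: Wt1, Foxc1, Foxc2, Tcf21, Lmx1b, Dach1 and Zhx2. They were taken by name, each through the only probe set that carried its symbol alone in the platform annotation, and all 7 were found among 30063 named genes. Expression had been measured by Affymetrix microarray in 6 RNA samples from mouse podocyte lines, 3 labelled Wildtype and 3 labelled NCK1/2 knockout, that is, as lacking the adaptor genes Nck1 and Nck2. Every sample shares conditional immortalization of its line and growth on type I collagen, where the cells were left to differentiate for 10 days until total RNA was taken. The sources used here do not give the strain, age or sex of the animals, the way in which the genes were deleted or the number of clones behind each line. The replicates are described as independent without saying of what, so the p-values below measure the spread between these samples.

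Podocytes are the epithelial cells that wrap the glomerular capillaries and hold the filtration slits of the kidney. Their identity rests on a small set of DNA-binding proteins: the zinc finger protein WT1, the forkhead proteins FOXC1 and FOXC2, the basic helix-loop-helix (bHLH) protein TCF21 and the LIM homeodomain protein LMX1B act during glomerular development, and WT1 and LMX1B are also needed in the mature cell. DACH1 and ZHX2 act mostly as repressors and have been studied in podocyte injury. Mutations of WT1 or LMX1B cause inherited glomerular disease.

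The arrays and the labels were checked over the whole series. Across genes, arrays of a line correlated at 0.993 to 0.998 (Pearson r) and arrays of different lines at 0.978 to 0.985. Nck1 was lower in knockout (-0.51, limma adjusted p = 0.00384) and Nck2 was at -0.24 (adjusted p = 0.0928), and the place of their probes relative to the deletion is not known. The Nck2 means, 7.48 in wildtype and 7.24 in knockout, lay within the background range described below, where a loss can be hidden. Nck1 stayed above that range in knockout, at 8.12. The X-linked Xist was at 12.19 in wildtype and 6.01 in knockout and the Y-linked Uty at 5.21 and 9.90, so the lines differ in sex chromosome expression. For Foxc1, as for every other gene here, the genotype and the origin of the line cannot be told apart. As a check of the labelled cell type, of 6 measured podocyte markers, Synpo, Podxl and Cdkn1c lay above the background range (up to the highest mean of the array's 23 background control probe sets) in both lines and Nphs1, Ptpro and Clic5 within it. Over all genes 62.7% had a mean of the 6 arrays within that range. The summed linear intensity of the 6 ran from 1259 to 1351 in wildtype and 1370 to 1386 in knockout. In wildtype the sums were 14147 to 15206 for the tubule list and 6767 to 7294 for the parietal epithelial list described below. These markers therefore do not establish the podocyte label. By limma 0 of the 6 passed, and 1, the cell cycle inhibitor gene Cdkn1c, had an unadjusted p under 0.05. Cdkn1c was at 0.27 (limma adjusted p = 0.142) and passed without wildtype replicate 1 (0.36, adjusted p = 0.022).

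Foxc1 was the member that differed between the lines, and it was lower in knockout. Of the 7 genes 1 passed the test (limma, Benjamini-Hochberg adjusted p under 0.05 over all genes) and 6 did not, where 12.1% of all genes passed (1540 higher and 2103 lower). The median log2 fold change was -0.04 over the 7 genes and 0.01 over all genes. The 6 other members ran from -0.09 to 0.12, with limma adjusted p from 0.383 to 0.996. Their 95% confidence intervals together spanned -0.22 to 0.31. A p that misses the threshold does not show that the lines were alike for these genes.

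**Figure D1:**
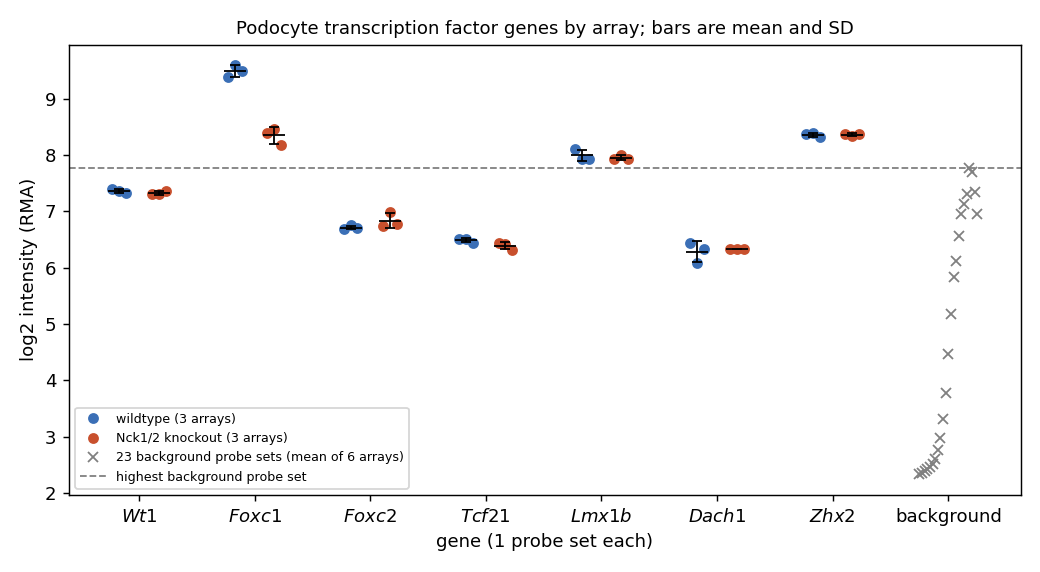
Log2 intensity of each of the 7 genes in 3 wildtype and 3 knockout arrays, with the mean and SD of each group as bars, beside the means of the 23 background probe sets and a dashed line at the highest of them, 7.78. The Foxc1 values of the lines are apart, and those of the 6 other genes overlap or, for Tcf21, touch.

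Where a gene stood against background was read from 23 control probe sets that the array carries for this purpose. They are named by GC class from 3 to 25 and their means rose from 2.33 to 7.78 (log2 intensity). Means that do not exceed 7.78 are described as lying in the background range. The GC content of the members' probes is not known, so a gene within the range is not shown to be silent. Foxc1, Zhx2 and Lmx1b lay above the range in both lines, and Wt1, Foxc2, Tcf21 and Dach1 lay within it in both. Over all genes 62.7% had a mean within the range.

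The fall of Foxc1 was seen in every knockout array. FOXC1 is a forkhead transcription factor needed for the eye, heart, skeleton and kidney of the embryo, and with FOXC2 it is used by podocytes. Its log2 intensities were 9.39, 9.60 and 9.49 in the wildtype arrays and 8.39, 8.47 and 8.19 in the knockout arrays. All 3 knockout values lay below all 3 wildtype values, which held in either direction for 27.5% of all genes. The means were 9.49 ± 0.10 and 8.35 ± 0.15 (SD, n = 3 each). The log2 fold change was -1.14 with a standard error of 0.09 and a 95% confidence interval of -1.36 to -0.93 (limma adjusted p = 0.000595). On the linear scale the knockout signal was 45.2% of the wildtype signal, which makes it 2.21-fold lower. Of all genes, 0.745% passed with a log2 fold change at or below -1, and 163 of them fell further than Foxc1. In all, 393 genes changed by more in either direction, 1.31% of those tested.

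Both lines kept Foxc1 above the background range. The wildtype mean was 1.72 and the knockout mean 0.57 above the highest background probe set (log2 units). The highest background probe set itself varied between arrays, from 7.53 in knockout array 3 to 7.90 in wildtype array 2. Measured from each array's own highest background probe set, Foxc1 stood 1.65 ± 0.06 above it in wildtype and 0.64 ± 0.03 in knockout (SD, n = 3 each), a difference of -1.01. On this measure the other members differed by 0.04 (Tcf21) to 0.26 (Foxc2). It therefore also carries the shift of the control probe set between arrays and is not a second estimate of the Foxc1 change. RMA intensities are compressed near background, so the fold given here can understate the change.

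Markers of other cell types also differed between the lines, beside the fall of Foxc1. The share called was 50% of the tubule list, 33.3% of the mesangial and pericyte list, 50% of the parietal list, 14.3% of the endothelial list and 20% of the leukocyte list, against 12.1% of all genes. Counting only genes with a mean above the background range in a line, 3 of 4 tubule and 3 of 4 parietal markers passed. So did 2 of 2 mesangial and pericyte, 1 of 1 endothelial and 1 of 1 leukocyte markers. Over all genes it was 2948 of 11676. Of 6 tubule markers 3 fell: Aqp1 fell by 3.50 and Lrp2 fell by 0.36 on the log2 scale, and Cdh16 went from a mean of 11.60 to 10.10. The summed linear intensity of the 6 ran from 14147 to 15206 in wildtype and 4837 to 5047 in knockout. Of 6 measured mesangial and pericyte markers 2 rose, Acta2 by 2.83 and Pdgfrb by 2.36. The sum of all 6 ran from 1585 to 1815 in wildtype and 8661 to 9533 in knockout. Of 6 parietal epithelial markers Cldn1 and Pax8 fell and Cd44 rose, and the sum of all 6 ran from 6767 to 7294 in wildtype and 5720 to 6183 in knockout. Ehd3 fell among 7 endothelial markers (sum 996.1 to 1061 and 806.0 to 858.0), and Cd68 rose among 5 leukocyte markers (sum 488.7 to 524.4 and 580.9 to 704.9), a call lost with arrays centred on their medians (limma adjusted p = 0.0561) and without any 1 array other than knockout replicate 3. Both means lay within the background range for 4 of the 6 mesangial and pericyte, 6 of the 7 endothelial and 4 of the 5 leukocyte markers. The same held for 2 of the 6 tubule and 2 of the 6 parietal markers. The wildtype mean of Pdgfrb, 7.56, also lay within it. A change of Ehd3 or Cd68 alone does not show that endothelial cells or leukocytes were present. The part of these markers in the fall of Foxc1 was not tested. In RNA from a whole culture, fewer cells that express a gene and less of its RNA per cell cannot be told apart.

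**Figure D2:**
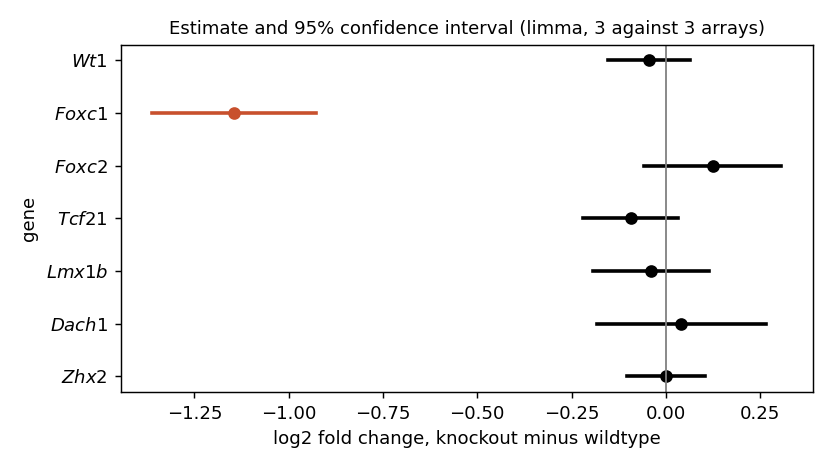
Log2 fold change, knockout minus wildtype, of the 7 genes as points, with the limma 95% confidence interval as bars. Foxc1 is at -1.14 with its interval below 0, and the intervals of the 6 other genes include 0.

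The start region of Foxc1 is shown because it is the gene that changed, and that of Lmx1b because it lay above background in both lines and did not pass. Both are the 250 bases before a RefSeq start site on GRCm38.p6, with Foxc1 on the plus strand of chr13:31806396-31806645 and Lmx1b on the minus strand of chr2:33641099-33641348. Capitals mark a CCAAT box (CCAAT, or ATTGG where it lies on the other strand) or a GC box (GGGCGG). The Foxc1 window ends where the annotated gene begins, but the annotated Lmx1b gene reaches further upstream than the start site used, so that 110 of the 250 bases lie inside it. Start regions of 4 of the 7 members were matched by symbol.
Foxc1: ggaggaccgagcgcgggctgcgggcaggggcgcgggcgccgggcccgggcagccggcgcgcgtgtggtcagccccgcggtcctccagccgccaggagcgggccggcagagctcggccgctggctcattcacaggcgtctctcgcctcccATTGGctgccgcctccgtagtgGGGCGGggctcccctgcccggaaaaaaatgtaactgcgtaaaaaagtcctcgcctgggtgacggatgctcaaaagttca
Lmx1b: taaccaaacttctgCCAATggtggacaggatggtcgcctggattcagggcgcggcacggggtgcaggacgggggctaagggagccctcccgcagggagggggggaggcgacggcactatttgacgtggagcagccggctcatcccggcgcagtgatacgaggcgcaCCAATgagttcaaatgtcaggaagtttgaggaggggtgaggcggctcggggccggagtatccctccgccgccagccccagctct

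The Foxc1 start region was rich in G and C, at 70.8%, where the median of 32851 start regions was 52.4% and 91.7% had less. It held 1 CCAAT box, which begins at -101 on the other strand, and 1 GC box, at -79. Of all start regions 33.8% hold a CCAAT box and 32.7% a GC box on either strand. No TATA box (TATAAA, in 12.4% of start regions), TEAD motif (GGAATG, 12.6%), AP-1 motif (TGANTCA, 6.75%) or forkhead core (TAAACA, in 3952 of the 32851) was in this window. Lmx1b had 2 CCAAT boxes, at -236 and, inside the annotated gene, at -84, counted from the start site used, a GC content of 65.2%, and none of the other 5 motifs. These motifs do not overlap each other in either window, and a match of letters is not a binding site.

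Foxc2, the nearest paralog of Foxc1, did not pass the test. Foxc2 was at 6.69, 6.75 and 6.70 in wildtype and 6.74, 6.99 and 6.78 in knockout (log2 intensity). The groups overlapped, and knockout array 2 was the highest of the 6. The log2 difference was 0.12 (95% confidence interval -0.06 to 0.31, limma adjusted p = 0.432), and it was 0.05 without knockout replicate 2. Both Foxc2 means lay within the background range, above 16 of the 23 background probe sets in each line, where a fall in its RNA can be hidden by background signal. A planned exact permutation test of Foxc1 minus Foxc2 within arrays was run, but with Foxc2 in the background range it measures little beyond the fall of Foxc1, and nothing is drawn from it.

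Forkhead genes other than Foxc1 mostly did not pass. Of 39 measured family members, Foxc1 among them, 2 rose, 2 fell and 35 did not pass, 10.3% called against 12.1% of all genes, and the family median was -0.01. For 24 of the 39, neither mean exceeded the background range. Of the 15 others 4 passed, where 2948 of 11676 such genes did. Foxf1, a mesenchymal forkhead gene, rose from 9.40 ± 0.04 to 10.15 ± 0.03 (log2 fold change 0.75, limma adjusted p = 0.000209). Foxo3, of the insulin-regulated branch, rose by 0.28, and Foxk2 fell by 0.25 on the log2 scale. The Foxo3 call was lost without wildtype replicate 3 (limma adjusted p = 0.0538). The Foxk2 call was lost on leaving out wildtype replicate 3 or 1 of the knockout replicates, whichever it was (limma adjusted p from 0.0552 to 0.0966), with chromosome medians taken off (-0.15, adjusted p = 0.132) and with arrays centred on their medians (adjusted p = 0.0928).

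**Figure D3:**
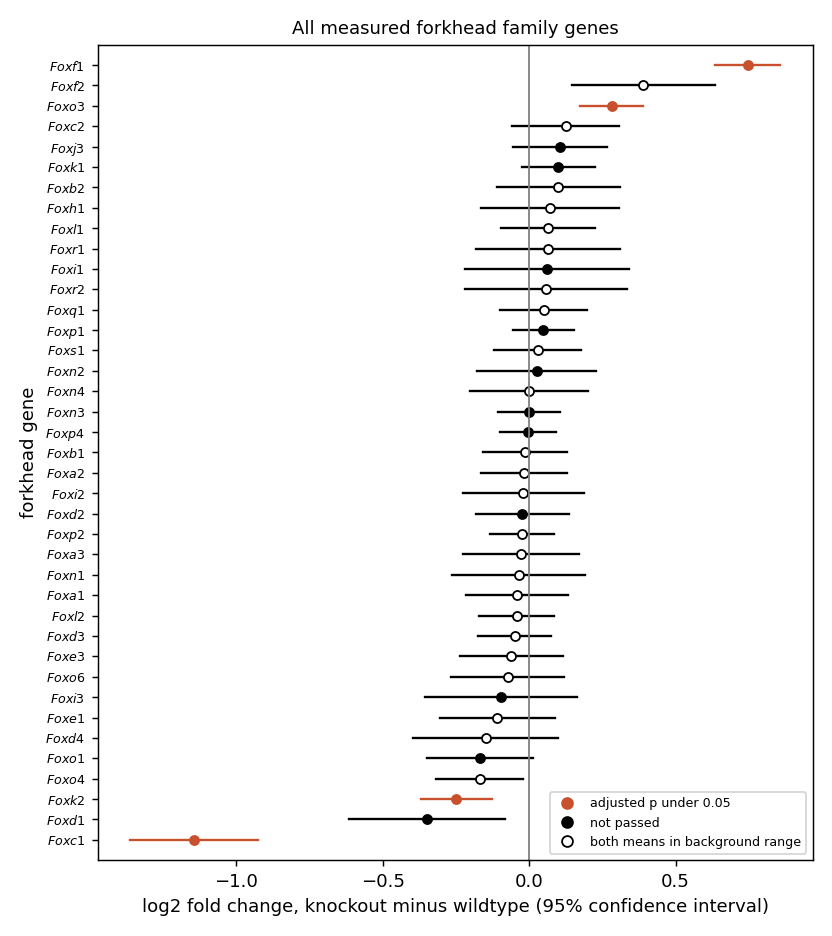
Log2 fold change, knockout minus wildtype, with 95% confidence intervals for the 39 measured forkhead genes, in order of size. Foxc1 is the lowest at -1.14 and Foxf1 the highest at 0.75, and open points have both means within the background range.

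Some genes near Foxc1 and Foxc2 changed and others did not pass. Among 7 measured genes listed from the 2 clusters, 2 rose, 1 fell and 4 did not pass, 42.9% called against 12.1% of all genes. For 3 of the 7 both means lay within the background range, where a change can be hidden. Of the 4 others 3 passed, against 2948 of 11676 such genes. In the reference annotation Foxc1 stands beside Gmds, which encodes an enzyme of GDP-fucose synthesis. Gmds fell with it, from 10.36 ± 0.08 to 9.09 ± 0.12, which is -1.27 on the log2 scale (SE 0.08, limma adjusted p = 0.000185). Foxf2, the third gene on the other side of Foxc1, went from 6.45 ± 0.08 to 6.84 ± 0.19 (0.39, limma adjusted p = 0.0562), within the background range in both lines. Foxf2 passed with chromosome medians taken off (0.46, adjusted p = 0.0336), without genes of 3 identical values in a group (adjusted p = 0.0438) and without knockout replicate 1 (0.50, adjusted p = 0.0152). The other measured genes within 3 places of Foxc1 were the pseudogene Gm11380 (-0.09) and the small nuclear RNA gene Gm25186 (0.08), which did not pass. Both means of Gm25186 lay within the background range. Foxq1, another forkhead gene of that cluster, was at 0.05 (adjusted p = 0.774) within the background range. On the Foxc2 side, Foxf1 rose as given above, and the long noncoding RNA gene Fendrr, which is transcribed divergently from Foxf1, rose from 7.72 ± 0.07 to 8.77 ± 0.09 (1.05, limma adjusted p = 0.000212), its wildtype mean being within the background range. Foxl1 (0.06) and Mthfsd (-0.15) of the same cluster did not pass. The brighter genes of chromosome 13 had a median log2 fold change of -0.07, and with chromosome medians taken off Foxc1 was at -1.08.

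The genes most like Foxc1 over the 6 arrays were taken from 11390 others, those of established symbol whose mean was not below the all-gene median, by the smallest root mean square difference of profiles centred on each gene's mean. They were Lbr, which encodes the lamin B receptor of the nuclear envelope, Samd9l, an interferon-inducible gene, the R-spondin receptor gene Lgr4 and the mucin-type glycosyltransferase gene Galnt7, with differences of 0.046 to 0.051 log2 units. Pearson r with Foxc1 was 0.996 to 0.999 over 6 arrays, a description that rests mainly on the difference between the lines, which all of them share. Their log2 fold changes were -1.12 for Lbr, -1.22 for Samd9l, -1.20 for Lgr4 and -1.12 for Galnt7.

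**Figure D4:**
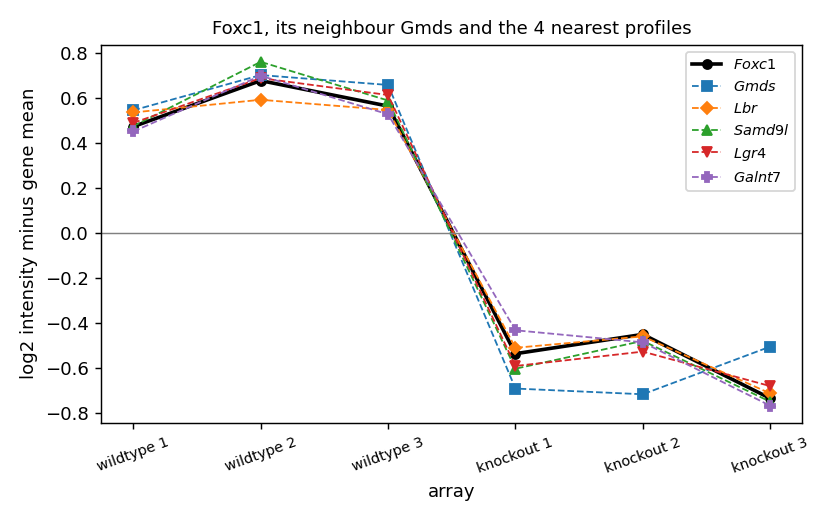
Log2 intensity minus each gene's mean over the 6 arrays, for Foxc1 (solid line), its neighbour Gmds and the 4 nearest profiles. All 6 genes are above 0 in the wildtype arrays and below 0 in the knockout arrays, and in knockout array 3 Gmds is higher than the others, which are at their lowest there.

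Wt1, the zinc finger gene that controls nephrin and podocalyxin expression, did not pass. Its log2 intensities were 7.41, 7.36 and 7.33 in wildtype and 7.31, 7.30 and 7.36 in knockout. The groups overlapped over a range of 0.11 between the lowest and the highest array. The difference was -0.04 (95% confidence interval -0.15 to 0.06, limma adjusted p = 0.706). Of the members within the background range Wt1 was nearest its top, with means above 21 of the 23 background probe sets in wildtype and 20 in knockout, and within the range in each array. A single probe set does not separate the Wt1 splice forms with and without the KTS insert. Among 8 measured genes for proteins that bind or modify WT1, 2 rose and 6 did not pass, 25% called against 12.1% of all genes. Among the 7 with a mean above the background range in a line 2 passed, where 2948 of 11676 such genes did. Pawr, which encodes the repressor PAR-4, rose by 0.48 (limma adjusted p = 0.01), and Basp1, which encodes a WT1 corepressor, by 0.29 (adjusted p = 0.0315). The Pawr call was lost without wildtype replicate 3 (limma adjusted p = 0.0522). The Basp1 call was lost without any single wildtype replicate, knockout replicate 1 or knockout replicate 2 (limma adjusted p from 0.0591 to 0.109) and with chromosome medians taken off (0.17, adjusted p = 0.163).

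Tcf21, the bHLH gene expressed in podocyte precursors and in kidney stroma, was at 6.51, 6.50 and 6.45 in wildtype and 6.45, 6.41 and 6.32 in knockout. Wildtype array 3 and knockout array 1 had the same value, so the groups touched without crossing. The difference was -0.09 (95% confidence interval -0.22 to 0.03, limma adjusted p = 0.383). Both means were within the background range, above 15 of 23 background probe sets. Of 17 measured bHLH relatives and partners, Tcf21 among them, 2 rose, 2 fell and 13 did not pass, 23.5% called against 12.1% of all genes. Those that passed were 4 of the 11 with a mean above the background range in a line, against 2948 of 11676 such genes. The bHLH factor gene Twist2 fell from 9.47 ± 0.08 to 8.46 ± 0.06 (SE of the difference 0.06, limma adjusted p = 0.000199). The genes of the ID proteins, which sequester bHLH partners, went apart, with Id2 at -0.76 and Id3 and Id1 at 0.65 and 0.35, while Id4 was at 0.29 and did not pass (limma adjusted p = 0.118). The general dimer partners Tcf3, Tcf4 and Tcf12 were at 0.14, 0.22 and -0.08 and did not pass.

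Lmx1b, mutated in nail-patella syndrome, lay closest to the limit of the background range. It was at 8.11, 7.93 and 7.94 in wildtype and 7.93, 8.01 and 7.93 in knockout (log2 intensity). The groups overlapped and wildtype array 1 was the highest. The means exceeded the highest background probe set by 0.22 and 0.18. The difference was -0.04 (95% confidence interval -0.19 to 0.11, limma adjusted p = 0.841) and turned to 0.02 without wildtype replicate 1. Of 21 measured LIM homeodomain factors and cofactors, Lmx1b among them, 2 rose, 1 fell and 18 did not pass, 14.3% called, near the 12.1% of all genes. Lhx9, a LIM homeodomain gene of the developing gonad, rose from 6.58 ± 0.11 to 8.61 ± 0.02 (2.03, limma adjusted p = 1.69e-05), its wildtype mean being within the background range. Ssbp3, which encodes a stabilizer of the LIM cofactor complex, rose by 0.28, a call lost without wildtype replicate 3 (limma adjusted p = 0.0502). Lmo1, which encodes a LIM-only protein, fell by 0.29 on the log2 scale within the background range, a call lost without wildtype replicate 3 or knockout replicate 2 (limma adjusted p = 0.0662 and 0.0531). Ldb1, the cofactor that LMX1B shares with other LIM proteins, was at -0.10 and did not pass (limma adjusted p = 0.337).

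Dach1, which encodes a corepressor that works with EYA proteins and their homeodomain partners, was at 6.45, 6.09 and 6.33 in wildtype and at 6.33 in each knockout array. These 3 knockout values and that of wildtype array 3 were identical, so the probe summary gave only 3 distinct values over 6 arrays and the spread can be understated. The wildtype values lay on both sides of the knockout value. The difference was 0.04 (95% confidence interval -0.18 to 0.26, limma adjusted p = 0.899). It was 0.12 without wildtype replicate 1 and -0.06 without wildtype replicate 2. Both means lay within the background range, above 15 of 23 background probe sets. Of 13 measured genes of this network, Dach1 among them, 2 rose and 11 did not pass, 15.4% called, near the 12.1% of all genes. Eya1, a phosphatase and coactivator gene of early nephron progenitors, rose from 7.61 ± 0.08 to 9.36 ± 0.02 (1.75, limma adjusted p = 1.54e-05), its wildtype mean being within the background range. Eya4 rose by 0.52, a call lost without wildtype replicate 3 or knockout replicate 2 (limma adjusted p = 0.0545 and 0.0505). Six2, the nephron progenitor factor gene, was at 0.17 and did not pass (limma adjusted p = 0.285).

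Zhx2, a zinc finger and homeobox repressor gene, had the narrowest interval of the 7. It was at 8.37, 8.39 and 8.33 in wildtype and 8.38, 8.34 and 8.37 in knockout, above the background range in every array. The groups overlapped fully. The difference was 0.0013 (95% confidence interval -0.10 to 0.10, limma adjusted p = 0.996). The brighter genes of its chromosome 15 had a median log2 fold change of 0.12, and with that taken off Zhx2 stood at -0.12 (limma adjusted p = 0.136). Zhx3, which encodes a partner of ZHX2, was at -0.26 (limma adjusted p = 0.0915). Zhx3 passed without wildtype replicate 1 (-0.33, adjusted p = 0.0367), with quantile normalization applied again (adjusted p = 0.0499) and among genes above background alone (adjusted p = 0.0394). Of 4 measured genes linked to ZHX2 in liver, which include its repression targets Afp and Gpc3, 0 passed by limma, where 12.1% of all genes did. Each of the 4 had both means within the background range and an unadjusted p above 0.05.

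Among 12 measured regulators of podocyte and nephron genes outside the 7, 4 rose, 2 fell and 6 did not pass, 50% called against 12.1% of all genes, with a median log2 fold change of 0.17 against 0.01 over all genes. With a mean above the background range in a line, 5 of 11 passed, against 2948 of 11676 over all genes. Osr1, an early kidney mesenchyme factor gene, rose by 1.59 (SE 0.11), the pluripotency and epithelial factor gene Klf4 by 0.79 (SE 0.10), the Notch effector gene Hey1 by 0.76 (SE 0.06) within the background range and the progenitor factor gene Sall1 by 0.59 (SE 0.05). Sox9, a factor gene of injured epithelium, fell by 1.19 (SE 0.10) on the log2 scale, and the glucocorticoid receptor gene Nr3c1 by 0.49 (SE 0.07). Sall1 and Nr3c1 were named after their values were seen. Klf6, Klf15, Pax2, Tead1, Yap1 and Nfatc1 did not pass.

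Podocyte genes listed as candidates for control by the 7 factors mostly did not pass either. Of these 22 genes, 2 rose, 2 fell and 18 did not pass, 18.2% called against 12.1% of all genes, with a median of 0.04. Of the 13 with a mean above the background range in a line 4 passed, against 2948 of 11676 such genes. Plce1, a phospholipase gene mutated in nephrotic syndrome, rose by 3.12 (SE 0.05) from a wildtype mean within the background range, and the growth factor gene Vegfa by 0.55 (SE 0.06). Scel, which encodes the cornified envelope protein sciellin, fell from 8.59 ± 0.22 to 6.79 ± 0.09, into the background range, and the dystroglycan gene Dag1 fell by 0.68 (SE 0.07) on the log2 scale. Col4a3 and Col4a4, the collagen genes linked to LMX1B, were at -0.19 and -0.04, and Nphs1 and Podxl, linked to WT1, at -0.02 and 0.09, none of which passed.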

How the data were processed

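Log2 probe set intensities of 6 arrays were used as deposited by the authors, who summarised probes by RMA in affy 1.44.0, per the submitters' processing notes. The sources used here do not give the probe definition file, the genome build or any filter. Of 72688 probe sets, 30604 carried 1 gene symbol in the platform annotation and 2146 carried several and were not named. Symbols were updated through a GRCm38.p6 gene table, used only for names and gene order, and the probe set with the highest mean was kept, which left 30063 genes. RMA can give arrays identical values, as it did within a line for 1897 genes.

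The difference, knockout minus wildtype, was fitted with limma 3.58.1 under R 4.3.3 (lmFit, eBayes, two-sided, no covariate, no filter), with Benjamini-Hochberg adjustment over all genes at 0.05. Errors are SDs over 3 arrays or limma standard errors. No detection calls were used. The scripts were tested on simulated data. Figures were drawn with matplotlib 3.10.9.

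The 7 genes and the 16 lists of related genes and markers were chosen with earlier results of these data known. From each list up to 4 passing genes with the largest changes were named, or the 1 with the lowest p, beside genes within 3 places of Foxc1 and the 4 most like it; others were named after their values were seen. A few genes of the lists, the podocin gene among them, were not analysed here.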

Additional observations from a re-analysis of the deposited data

How the results depend on the processing

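Foxc1 kept its direction and its call under each of 16 alternatives, with log2 fold changes from -1.21 to -1.06 and limma adjusted p from 1.46e-05 to 0.00717, and it was the 1 member called under each of them. The 6 other members passed under none. Of 107 values of the 7 genes under alternatives, 9 changed sign, all of genes that did not pass. With each array left out Wt1 ran from -0.062 to -0.025 and Tcf21 from -0.12 to -0.056. Lmx1b moved to 0.021 with array weights and ran from -0.069 to 0.019 with each array left out. Dach1 moved to -0.040 with chromosome medians taken off and ran from -0.059 to 0.12 with each array left out. Zhx2 moved to -0.0048 with arrays centred on their medians and to -0.12 with chromosome medians taken off, and ran from -0.016 to 0.014 with each array left out. The cause was not tested. Over all genes 3643 passed, 2065 to 3363 with each array left out (the fewest without wildtype replicate 3), 1940 at a threshold of 0.01 and 10004 with array weights, a fit for which limma warned that the weights had not converged, that of wildtype array 3 being 53.3. Of the 7 genes 4 lay within the background range as defined, 3 below the 90th percentile of the background probe sets and 0 below their median. Of 256 list counts under alternatives, 223 stayed within 1.5 times, 19 were lower and 14 higher, 9 of these with array weights. Same-numbered arrays of the lines deviated together with correlations of 0.34, 0.27 and 0.04. Each wildtype array correlated best with the knockout array of its own number, but knockout array 3 correlated best with wildtype array 2 (0.05). The labels do not say what the numbers share, so they were not taken as pairs, and the replicate block was run as an alternative. With the replicate block Foxc1 was at -1.14 (limma adjusted p = 0.000658), 1 of the 7 genes passed and 3734 of all genes did. Of the other genes named, Foxf2 passed with the block (adjusted p = 0.0482), and Foxk2 (0.0522) and Basp1 (0.0647) did not. The number of arrays limits the precision. Wt1, Foxc2, Tcf21 and Dach1 lay within the background range and Lmx1b close to its limit. A change of such genes can be hidden by background signal even where the interval is narrow.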
